A study of Mus musculus with 8 samples.

Results

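The angiopoietins and angiopoietin-like genes encode secreted proteins that share a coiled-coil stretch and a fibrinogen-like domain. The RNA of 8 of them was read in ATCL7 cells, a mouse line of adrenocortical tumour origin that grows without limit. The 8 were Angpt1, Angpt2, Angpt4, Angptl1, Angptl2, Angptl4, Angptl6 and Angptl7, out of 20719 genes on the array. They were chosen by family name, around Angptl6, after that gene had been seen among the largest rises of the same comparison. Their differences between treatments are therefore given as a description, with no p-value, and a count of those past a threshold is printed only to set it beside all genes.

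Cells were treated for 24 h in medium with 0.025% each of fetal bovine and horse serum. The BIO group received 0.5 µM 6-bromoindirubin-3'-oxime, an inhibitor of glycogen synthase kinase 3 used to stabilise β-catenin, and the vehicle group received 0.01% DMSO. The titles put the 8 samples of 250000 male cells each in 4 numbered pairs of 1 BIO and 1 vehicle sample, each read on 1 Mouse Gene 1.1 ST array. All samples came from 1 cell line. Nothing in the labels tells whether each pair was its own culture, so the p-values given cover the spread from array to array, which may be technical. Values are log2 signals after RMA (background correction, quantile normalization and a summary per probe set). Array medians lay between 5.70 and 5.73. Precision is set by having 4 arrays per group.

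Angiopoietins bind the receptor tyrosine kinase TIE2, encoded by Tek, on endothelial cells. Angpt1 is the agonist that keeps vessels quiet, while Angpt2 mostly opposes it and makes vessels responsive to growth factors. The angiopoietin-like proteins do not bind TIE2. They act on lipases, integrins and other receptors, and Angptl6, also called angiopoietin-related growth factor, is a circulating liver-derived factor known to raise energy expenditure in mice.

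The stretches before the transcript starts of Angptl6, the gene with the largest difference among the 8, and of Angpt4, with a small one, are shown side by side. They are the 250 bases before the start, read 5′ to 3′ on the gene's strand, from RefSeq on GRCm38.p6. Angptl6 lies at chr9:20879711-20879960 on the minus strand and Angpt4 at chr2:151910957-151911206 on the plus strand. Capitals mark motif matches on either strand.
Angptl6: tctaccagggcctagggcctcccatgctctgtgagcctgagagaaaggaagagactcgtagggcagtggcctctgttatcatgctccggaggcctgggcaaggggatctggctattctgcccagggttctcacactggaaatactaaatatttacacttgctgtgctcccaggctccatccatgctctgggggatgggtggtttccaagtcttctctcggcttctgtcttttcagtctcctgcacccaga
Angpt4: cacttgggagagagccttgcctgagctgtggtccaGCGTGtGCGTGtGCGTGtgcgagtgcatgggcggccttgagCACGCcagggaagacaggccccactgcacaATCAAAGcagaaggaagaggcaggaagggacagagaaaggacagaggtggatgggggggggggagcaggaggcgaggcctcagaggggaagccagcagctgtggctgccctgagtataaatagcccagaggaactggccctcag

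Of the 8 genes, 5 had a stretch in the table used. The motifs searched on both strands were the TCF/LEF core CTTTGAT, the aryl hydrocarbon receptor core GCGTG, the ATF4 core TGATGNAA, the cyclic AMP element TGACGTCA, the E-box CACGTG and the steroidogenic factor 1 site CAAGGTCA, and none of these overlapped another in the 5 stretches. The Angptl6 stretch held none of them. The Angpt4 stretch held 1 TCF/LEF core and 4 aryl hydrocarbon receptor cores, and the other 3 stretches, those of Angptl1, Angptl2 and Angptl7, held none. Over all 32851 stretches of that length, 3.21% held the TCF/LEF core, 28.2% the aryl hydrocarbon receptor core, 3.45% the ATF4 core, 1.55% the cyclic AMP element, 6.02% the E-box and 1.33% the steroidogenic factor 1 site. The Angptl6 stretch had 3 CG dinucleotides against a median of 6. A match is a run of letters and not a bound site.

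With BIO, Angptl6 was higher, Angpt2 was lower and the other members differed little. In a limma fit that kept each pair as a block, 3 of the 8 genes were past an adjusted p of 0.05, 1 higher (Angptl6) and 2 lower (Angpt2 and Angptl7). The rule of choice used this contrast, so nothing is read from that count. Among all genes 32.7% passed, 17.0% higher and 15.6% lower. The median log2 change was -0.09 over the 8 genes and -0.01 over all genes. BIO and vehicle values did not overlap for 2 of the 8, Angptl6 and Angpt2, against 27.0% of all genes. Each member had 1 probe set.

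**Figure D1:**
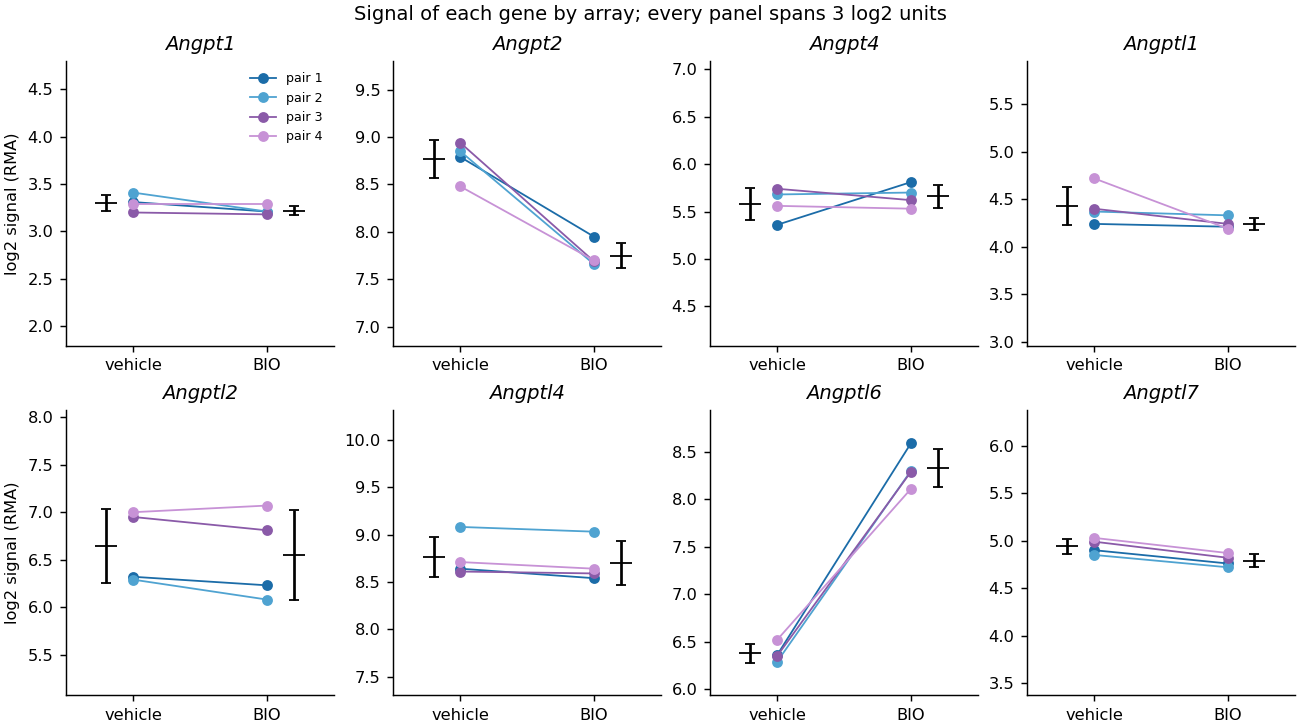
Log2 signal of the 8 genes on each array, vehicle at left and BIO at right, with lines joining the arrays of 1 pair and black bars giving the mean ± SD of 4 arrays. Angptl6 rises from between 6.29 and 6.52 to between 8.11 and 8.59, Angpt2 falls from between 8.48 and 8.94 to between 7.66 and 7.95, and Angptl2 separates by pair rather than by treatment.

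Angpt2, the context-dependent antagonist of TIE2, had the largest fall of the 8 genes. Its log2 signal was 8.79, 8.85, 8.94 and 8.48 in vehicle pairs 1 to 4, and 7.95, 7.66, 7.69 and 7.70 in BIO. All 4 BIO arrays lay below all 4 vehicle arrays. The mean went from 8.77 ± 0.20 to 7.75 ± 0.13 (SD, n = 4 arrays each), a log2 change of -1.02 ± 0.08 (SE), or 2.02-fold lower. The fall was larger in pairs 2 and 3 (-1.19 and -1.25) than in pairs 1 and 4 (-0.84 and -0.78). By size it stood 223rd among all falls, and 231 genes were called at least 2-fold lower. In these bulk samples fewer cells of a type and less RNA per cell cannot be told apart.

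Angpt1, the TIE2 agonist, had a low signal that differed little between groups. It read 3.31, 3.41, 3.20 and 3.29 in vehicle and 3.21, 3.21, 3.18 and 3.29 in BIO, and the groups overlapped. Its log2 change was -0.08, with a 95% interval from -0.20 to 0.03. Angpt4, a further TIE2 ligand, read 5.36, 5.68, 5.74 and 5.56 in vehicle and 5.81, 5.70, 5.62 and 5.53 in BIO. Pair 1 was the one with a clear difference, 0.45 higher with BIO, while pairs 2 to 4 differed by 0.02, -0.12 and -0.03. The fitted change of 0.08 (interval -0.12 to 0.28) turned to -0.04 without pair 1.

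Angptl6 had the largest change of the 8 genes, a rise of 3.85-fold. Its log2 signal was 6.36, 6.29, 6.35 and 6.52 in vehicle pairs 1 to 4 and 8.59, 8.30, 8.29 and 8.11 in BIO. The lowest BIO array was well above the highest vehicle array. The mean went from 6.38 ± 0.10 to 8.33 ± 0.20 (SD, n = 4 arrays each), a log2 change of 1.95 ± 0.09 (SE) with a 95% interval from 1.74 to 2.16. The set was built around this gene for its rise, so that interval is not a test of it. The pairs gave 2.24, 2.01, 1.94 and 1.60, so pair 1 had both the highest BIO value and the largest rise, and pair 4 the highest vehicle value and the smallest rise. By size it stood 10th among all rises, and 89 genes were called at least 2-fold higher.

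Angptl4, an inhibitor of lipoprotein lipase that fasting and fatty acids induce, had a bright signal in both groups. It read 8.64, 9.08, 8.61 and 8.71 in vehicle and 8.54, 9.03, 8.59 and 8.64 in BIO. The groups overlapped almost fully, although BIO was the lower array in 4 of 4 pairs. The log2 change was -0.06, with a 95% interval from -0.16 to 0.04.

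Angptl2, a pro-inflammatory factor that binds integrin α5β1, read 6.32, 6.29, 6.95 and 7.00 in vehicle and 6.23, 6.08, 6.81 and 7.07 in BIO. The 2 groups covered nearly the same range, and 3 of 4 pairs were lower with BIO. The log2 change was -0.09 (interval -0.22 to 0.03).

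Angptl1, known as an inhibitor of vessel growth, read 4.24, 4.37, 4.40 and 4.72 in vehicle and 4.21, 4.33, 4.24 and 4.19 in BIO. Vehicle pair 4 was the highest array, and that pair carried most of the difference (-0.52, against -0.04, -0.03 and -0.16 in pairs 1 to 3). The log2 change was -0.19 ± 0.08 (SE), and -0.08 without pair 4.

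Angptl7, a secreted protein of the cornea and the eye's outflow tissue, read 4.90, 4.85, 4.99 and 5.03 in vehicle and 4.76, 4.72, 4.82 and 4.87 in BIO. The groups overlapped at 1 point, where BIO pair 4 lay above vehicle pair 2, but within pairs BIO was lower 4 of 4 times, by 0.13 to 0.17. The mean was 1.11-fold lower (-0.15 ± 0.04, SE). Angptl7 dropped out of the count of 3 without the pair block, with an intensity trend and robust prior, and when any 1 pair was left out.

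**Figure D2:**
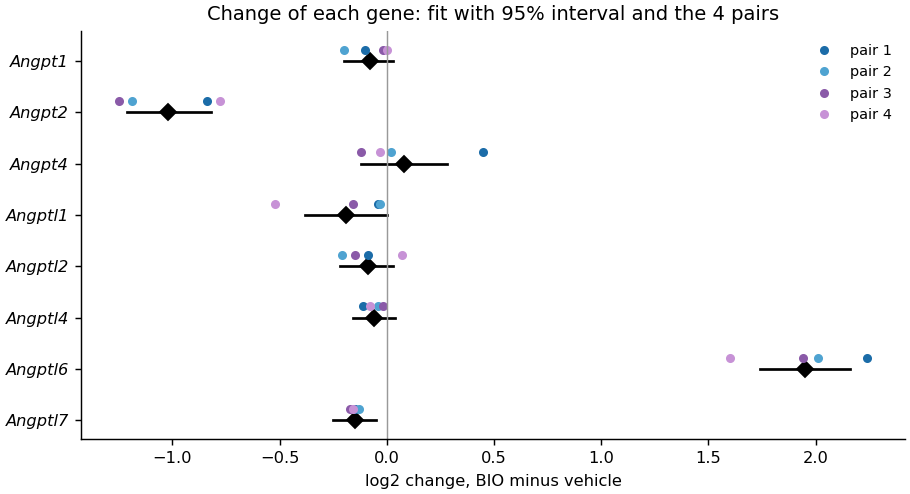
Log2 change of each gene, BIO minus vehicle, on the horizontal axis. Diamonds are the fitted change and black lines its 95% interval, which does not allow for the choice of members, and coloured dots are the 4 pairs. Angptl6 (1.95) and Angpt2 (-1.02) lie far from 0, and the other 6 lie between -0.19 and 0.08.

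How far the dim members lie above background is unknown, because no detection call came with the values used here. As a gauge, chosen after the data had been seen, the 1097 olfactory receptor genes on the array, which an adrenal line is not expected to use, had a median vehicle signal of 3.63 and a 95th percentile of 4.82. Angpt1 at 3.30 and Angptl1 at 4.43 had vehicle means under that percentile. Angptl7 lay close to it, with a mean of 4.94 in vehicle and 4.79 in BIO. Probe sets differ in brightness, so this places the signals and does not rank the genes' RNA levels. RMA compresses low signals, which understates differences of dim genes.

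Apart from treatment, 2 of the members differed between the 4 pairs. The pair terms of the same limma fit, tested with an F test chosen after the values by array had been seen, passed for 2 of the 8 genes, against 5.40% of all genes. Angptl2 had pair means of 6.28, 6.18, 6.88 and 7.04 (adjusted p = 0.0014). Its 4 arrays of pairs 1 and 2 lay between 6.08 and 6.32 and those of pairs 3 and 4 between 6.81 and 7.07, with no overlap. The range of pair means, 0.85, was reached by 1.26% of all genes, whose median was 0.15. Angptl4 had pair means of 8.59, 9.05, 8.60 and 8.68 (adjusted p = 0.0094), with both arrays of pair 2 above all others. The pair means of Angptl6 ranged over 0.18 (7.48, 7.30, 7.32 and 7.31) and did not pass, as did not those of Angpt2 (range 0.27). What set the pairs apart is not given in the labels.

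**Figure D3:**
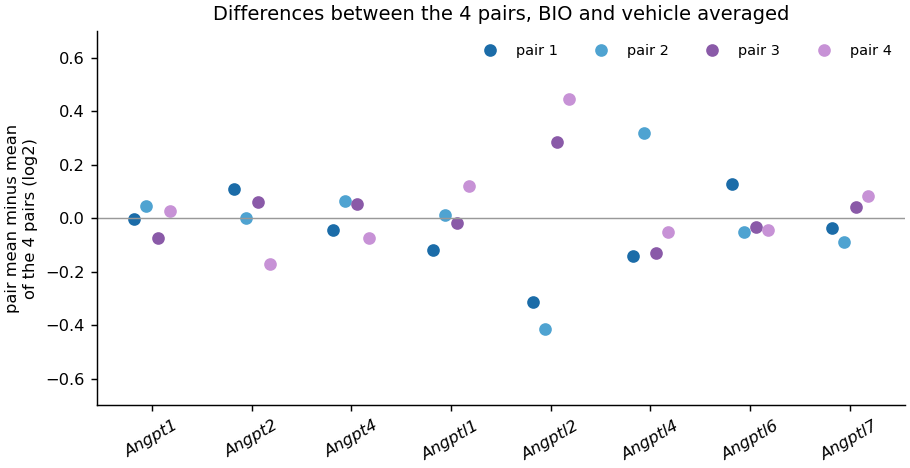
For each gene, the mean of the BIO and vehicle arrays of each pair minus the mean of the 4 pairs, in log2 units. Angptl2 is low in pairs 1 and 2 and high in pairs 3 and 4, Angptl4 is high in pair 2, and the pair means of the other 6 genes range over 0.12 to 0.27.

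The authors' deposited table also holds a second comparison of theirs, headed as 3 Wnt against 4 SF1 samples, which the choice of members did not use. In the authors' deposited table Angptl6 had a ratio of 1.05 there (authors' unadjusted p = 0.714) and Angpt2 a ratio of 1.06 (0.624). By the authors' deposited table, Angptl4 was the 1 gene of the 8 under an unadjusted p of 0.05, against 12.9% of all genes. Its Wnt over SF1 ratio in the authors' deposited table was 1.39 (unadjusted p = 0.0312, and 0.354 after Benjamini-Hochberg adjustment made here over all genes). After that adjustment 0 of 20719 genes of the authors' deposited table passed, and 2671 were under 0.05 unadjusted. The largest ratio of the 8 in the authors' deposited table was that of Angptl2, 1.48 (unadjusted p = 0.185).

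Among receptors and binding partners of the family, the genes that passed were integrin subunits and an adaptor, all lower with BIO. Of 12 genes measured, 5 fell, 0 rose and 7 did not pass (41.7% called against 32.7% of all genes), with a median log2 change of -0.12 against -0.01 over all genes. Itgb5 and Itgb3, integrin β subunits that pair with αv, were lower by 1.53-fold (log2 change -0.61 ± 0.06, SE, adjusted p = 9.51e-05) and 1.44-fold (-0.53 ± 0.06, adjusted p = 0.000223). Grb14, an adaptor that binds TIE2 and the insulin receptor, was lower by 1.37-fold (-0.45 ± 0.05), and Itgb1, the β1 subunit, by 1.26-fold (-0.33 ± 0.05). For Itgb1 that is the brighter of 2 probe sets, and with the mean of both the log2 change was -0.21. Itgav, the αv subunit, also fell (-0.19 ± 0.05, adjusted p = 0.016), a call lost without the pair block, without pair 2 or 3 and by the authors' own paired test. The authors' p-values for that test are unadjusted, and calls by it here and below follow Benjamini-Hochberg adjustment made here over all genes. After that adjustment 3947 of 20719 genes passed, against 6767 in the limma fit. Tek, which encodes TIE2, read 3.73, 3.77, 3.76 and 3.69 in vehicle and 3.95, 3.97, 3.77 and 3.85 in BIO (adjusted p = 0.0564). Its vehicle mean of 3.74 lay under the 95th percentile of the olfactory receptor genes, 4.82. Tek passed as higher without pair 3 and with cyclic loess normalization. Tie1, its co-receptor, differed by -0.13 ± 0.05, and Itga5, the α5 subunit, by -0.01 ± 0.05, and neither passed.

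Of 15 genes of the lipoprotein lipase system, on which Angptl4 acts, 3 rose, 3 fell and 9 did not pass (40.0% called against 32.7% of all genes), with a median log2 change of 0.11. Vldlr, a lipoprotein receptor, was higher by 1.63-fold (log2 change 0.70 ± 0.09, SE, adjusted p = 0.000697) and Lmf1, a maturation factor of lipases, by 1.41-fold (0.50 ± 0.05, adjusted p = 1e-04). The proprotein convertases Pcsk6 and Furin, a class of proteases that cleave Angptl4, were lower by 1.63-fold (-0.70 ± 0.09) and 1.40-fold (-0.48 ± 0.05). Lpl itself had a dim signal of 4.11 ± 0.11 in vehicle and 4.22 ± 0.12 in BIO (SD, n = 4) and did not pass, nor did Gpihbp1, which carries the lipase to the vessel wall (-0.01 ± 0.05, SE). By the authors' own paired test, adjusted here, 3 of the 15 passed, beside 3947 of all 20719 genes. Vldlr and Pcsk6 were among those lost.

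Of 19 targets of the peroxisome proliferator-activated receptors, the class to which Angptl4 belongs, 4 rose, 3 fell and 12 did not pass. The share called, 36.8%, was near the 32.7% of all genes, with a median log2 change of 0.04. Acot1, an acyl-CoA thioesterase, was higher by 1.43-fold (log2 change 0.52 ± 0.04, SE), and Cpt2, a carnitine palmitoyltransferase, by 1.18-fold (0.24 ± 0.05). Cpt1a, the gatekeeper of mitochondrial fatty acid entry, was lower by 1.23-fold (-0.30 ± 0.05) and Acadm, an acyl-CoA dehydrogenase, by 1.21-fold (-0.28 ± 0.04). Pdk4, a kinase that restrains glucose oxidation, did not pass (-0.38 ± 0.13, adjusted p = 0.0514). Pdk4 passed as lower without pair 3 or 4, with cyclic loess normalization and under both filters on dim genes. The call of Cpt2 was lost by the authors' own paired test, adjusted here, and that of Acadm without the pair block. The paired test left 4 of the 19, beside 3947 of all 20719 genes.

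Of 13 genes that share the fibrinogen-like domain, 1 rose, 2 fell and 10 did not pass (23.1% called against 32.7% of all genes), with a median log2 change of -0.05. Tnc, which encodes the matrix protein tenascin C, was 2.49-fold lower (log2 change -1.32 ± 0.07, SE), and Tnxb, which encodes tenascin X, was 1.45-fold higher (0.54 ± 0.07). Fgl1, a hepatokine, was 1.13-fold lower at a dim vehicle mean of 4.32, a call lost without pair 1 or 3, with cyclic loess normalization and by the authors' own paired test. Of the 3 genes of fibrinogen itself, Fga, Fgb and Fgg, none passed, although Fga did as lower without pair 1.

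Among other vascular growth factors and their receptors, 2 of 10 genes rose, 3 fell and 5 did not pass (50% called against 32.7% of all genes), with a median log2 change of -0.08. Nrp1, a co-receptor of VEGF and semaphorins, was 2.48-fold lower, from 11.62 ± 0.09 to 10.31 ± 0.13 log2 (SD, n = 4), and Nrp2 was 1.38-fold lower. Vegfd was 1.45-fold lower and Vegfb 1.20-fold higher, and both calls were lost by the authors' own paired test, that of Vegfd also without the pair block. Vegfa, the main driver of vessel growth, also rose (log2 change 0.23 ± 0.05, SE), a call that the authors' own paired test, adjusted here, lost too. By that test 2 of the 10 genes passed, both lower, beside 3947 of all 20719 genes. The receptor genes Kdr, Flt1 and Flt4 did not pass, with log2 changes of 0.08, -0.13 and -0.15. Flt4 passed as lower with cyclic loess normalization and under the stricter filter on dim genes.

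**Figure D4:**
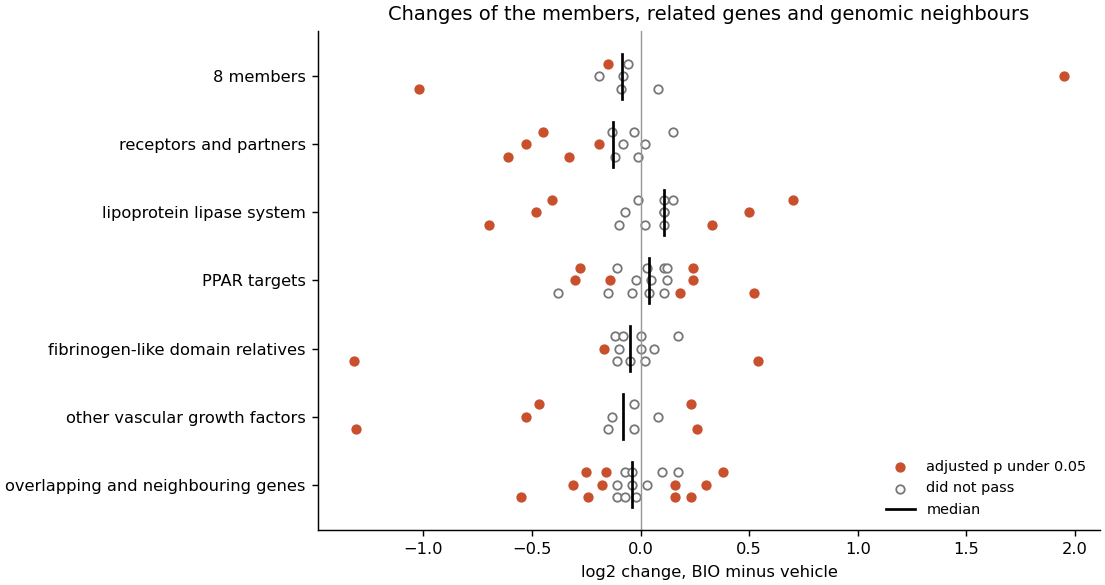
Log2 change of each gene, BIO minus vehicle, in the 8 members, the 5 lists of related genes and the genes that overlap or neighbour a member. Filled points have an adjusted p under 0.05, open points did not pass, and the black line is the median. The medians lie between -0.12 and 0.11, with Angptl6 (1.95) alone at the right.

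Several members share their place in the genome with a larger gene. By the RefSeq table of GRCm38.p6, used for gene order only, Angpt2 lies inside the span of Mcph1, Angptl1 inside Ralgps2, Angptl2 inside Ralgps1 and Angptl7 inside Mtor, while Angptl6 overlaps part of Shfl. Mcph1, a regulator of chromosome condensation, rose by 0.30 ± 0.05 (SE, adjusted p = 0.00159) where Angpt2 fell. Ralgps2, an activator of Ral GTPases, fell (-0.31 ± 0.04, adjusted p = 0.000928), as did its relative Ralgps1 (-0.18 ± 0.05) and Mtor, the nutrient-sensing kinase (-0.25 ± 0.05). Shfl, an antiviral gene listed under an older name in the files, did not pass (0.10 ± 0.06, adjusted p = 0.224), beside a rise of 1.95 for Angptl6. Shfl read 7.48, 7.16, 6.37 and 5.86 in vehicle pairs 1 to 4 and 7.41, 7.30, 6.49 and 6.06 in BIO, so it separated by pair and the groups overlapped, whereas Angptl6 separated by treatment. Counting the nearest measured gene on each side as well, 5 of 21 genes rose, 6 fell and 10 did not pass (52.4% called against 32.7%), with a median log2 change of -0.04. The call of Ralgps1 was lost without the pair block, without pair 1, 2 or 3 and by the authors' own paired test. The paired test also lost the call of Mtor. With 1 pair left out, 7 or 8 of the 21 passed, beside 5143 to 5948 of all 20719 genes.

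The 5 genes whose signal over the 8 arrays was most like that of Angptl6, among the 15539 genes in the upper 75% by mean signal and leaving out predicted gene models, were Invs, AU040320, Trib3, Axin2 and Elmod2. Their Pearson r lay between 0.9945 and 0.9966 (n = 8 arrays). The arrays fall into 2 treatment groups, so r mostly reflects that all 5 were higher with BIO, and 1402 genes had an r over 0.9. Trib3, a stress-induced pseudokinase, gave rises of 2.40, 2.36, 2.21 and 2.00 in pairs 1 to 4, the order of the Angptl6 rises. AU040320 and Elmod2 kept that order, and Axin2 and Invs did not. All 5 were picked by r over these same arrays, so nothing is read from a shared order. Axin2, the feedback inhibitor of Wnt signalling, gave 3.16, 3.19, 2.93 and 2.78. Invs, which encodes the ciliary protein inversin, rose by 0.63 ± 0.05 log2 (SE), less than Angptl6.

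Markers set the label of the cells beside the members. All 8 adrenocortical markers, among them Nr5a1, Star and Cyp11a1, had vehicle means between 5.68 and 11.84 and fell with BIO. Of 11 endothelial markers, with vehicle means between 3.74 and 5.92, 0 passed, and their summed linear signal was 332 to 352 in vehicle and 326 to 344 in BIO. Of 8 mural markers, cells that are another known source of angiopoietins, 3 fell, namely Acta2, Des and Notch3 (the last not by the authors' own paired test), and the sum went from 4190 to 4370 down to 2420 to 2920, most of it Acta2. Pdgfrb and Rgs5, which define those cells, had vehicle means of 4.41 and 4.21 and did not pass. Of 6 macrophage markers 2 fell, Cd68 and, except by the authors' own paired test, Cd14. The sums of the 6 were 368 to 400 in vehicle and 286 to 312 in BIO. Ptprc, Adgre1, Csf1r and Lyz2 did not pass, and their vehicle means lay under the 95th percentile of the olfactory receptor genes, 4.82. Of 5 adipocyte markers 1 rose, Retn (not without the pair block), with sums of 126 to 134 and 127 to 144. The shares called were 100% of adrenocortical, 0% of endothelial, 37.5% of mural, 33.3% of macrophage and 20% of adipocyte markers. Over all genes the share was 32.7%, so those of the mural and macrophage markers were near it. RMA signals have no true zero, so no marker can be called absent. The part of the mural and macrophage markers in the fall of Angpt2 was not tested.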

How the data were processed

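Total RNA (250 ng a sample) from 8 samples was read on 8 arrays. For 28944 probe sets the deposited values are log2 signals from RMA on perfect-match probes only, per the file headers. The submitters' processing notes name oligo, without a version. The authors' p-values, per the file headers, come unadjusted from a paired t-test. For calls by that test they were adjusted here by Benjamini-Hochberg over all genes. Their fold ratios are BIO over vehicle and, for another experiment, Wnt over SF1, per the file headers. The 2 deposited tables differed by at most 5.0e-09 log2.

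Where a symbol had several probe sets, the brightest by mean was kept, which left 20719 genes. Gene IDs matched RefSeq names for 20480. BIO against vehicle was fitted with limma 3.58.1 in R 4.3.3 with the pair as a block (8.07 moderated degrees of freedom), two-sided, with Benjamini-Hochberg adjustment over all genes. The pairs come from the titles. Deviations of same-numbered arrays from group means correlated at 0.446, 0.578, 0.385 and 0.617. The smallest two-sided p of an exact sign-flip test over 4 pairs is 0.125, so adjusted p-values here rest on a model of normal errors, in limma or in the authors' paired t-test. The fit was tested on data simulated with independent normal errors, so that test does not bear on errors of other kinds. Members and lists were chosen with earlier results of these data known. Named genes were all members, up to 4 called members of each list by size, some that did not pass, overlapping genes and the 5 most like Angptl6. Itgav, Vegfa and the called markers were added after their values were seen.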

Additional observations from a re-analysis of the deposited data

Results flagged for a closer look

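In some groups of 4 arrays 1 array lay apart. Its gap to the nearest of the others, divided by the range of the 4, exceeded Dixon's 95% critical value. This held for 11 of 222 groups over 111 genes (4.95%), near the 1 in 20 that chance gives. Among the members it was Angpt2, with 7.95 in BIO pair 1 against 7.66 to 7.70 in the other 3. BIO pair 1 was also high for Invs (9.08, others at 8.99) and AU040320 (8.86, others 8.73 to 8.75). BIO pair 4 was low for Acot1 (6.43), BIO pair 3 high for Nrp2 (9.41) and BIO pair 2 high for Plin2 (10.96). Pair 2 was low for Fabp3 in vehicle (5.21) and in BIO (5.25). In vehicle, pair 1 was low for Fga (3.87) and for Tex35, a neighbour of Angptl1 (4.20), and pair 3 was high for Fcnb (4.73).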

How the results depend on the processing

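Under 11 alternatives, Angptl6 had a log2 change of 1.85 to 2.06 and Angpt2 one of -1.09 to -0.94. These are given as ranges since the members were chosen on this comparison. Only leaving 1 pair out and cyclic loess normalization could alter these values. The other alternatives leave a member's log2 change as it is by construction, so they say nothing on its stability. Angptl7 was no longer past the threshold with no replicate block (-0.15), with an intensity trend and robust prior (-0.15) and without any 1 pair (-0.16 to -0.14). Angpt4 ranged from -0.04 without pair 1 to 0.15 when 1 pair was left out. Without the pair block no other member crossed the threshold. With the authors' paired t-test, its p-values adjusted here by Benjamini-Hochberg, 3947 genes passed against 6767. Among them were 3 of the lipase system, 4 of the PPAR targets, 2 of the vascular growth factors and 6 of the neighbouring genes. The neighbouring genes gave 7 to 8 with 1 pair left out, when 5143 to 5948 of all genes passed. With the lowest 50% of genes left out the fibrinogen-like list kept 1 gene, which passed. Filters on low values removed dim members, so those have no value there. With 1 pair left out Itga5 ranged from -0.05 to 0.04, Gpihbp1 from -0.03 to 0.02 and Pdgfrb from -0.05 to 0.02, each above 0 without pair 2, and Pdgfrb was 0.00 with cyclic loess normalization. None of these 3 genes passed in any alternative. The cause of these differences was not tested.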
